A study of Mus musculus with 2 samples.

Results

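The VEGF family was followed through regenerating mouse muscle as 10 genes chosen by name from the 19169 genes of the table. Of these, 5 encode ligands (Vegfa, Vegfb, Vegfc, Vegfd and Pgf), 3 encode receptor tyrosine kinases (Flt1, Kdr and Flt4, also called VEGFR1, VEGFR2 and VEGFR3) and 2 encode the neuropilin coreceptors (Nrp1 and Nrp2). All 10 were listed in the table. The cells came from the gastrocnemius, a calf muscle, taken 14 days after it was injured with cardiotoxin (CTX). This snake toxin kills muscle fibers and spares the stem cells that rebuild them. One library came from WT mice (C57BL/6J) and 1 from mice that lack Gsdme, a pore-forming gasdermin, in every cell (KO). Both had been injured, so no uninjured muscle was compared, and 5 male mice per genotype were used, with no word on whether their cells were pooled.

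The submitters tie each cell to its library by the end of its barcode. The library labelled KO held 7078 cells and 50930009 unique molecular identifiers (UMIs, each marking 1 captured RNA molecule), while that labelled WT had 6354 cells with 44758518 UMIs. Gsdme, the targeted gene, was read at 4.65 CPM (237 UMIs) in the library labelled KO and 5.03 CPM (225 UMIs) in that labelled WT. The log2 ratio was -0.11 (-0.38 to 0.16), so the targeted gene did not separate the libraries. Which part of the gene the reads come from is not given in the sources used here, and the libraries are therefore named as labelled throughout. With 1 library per genotype there is no replicate and no test. Each value is a CPM, the UMIs of a gene per 1000000 UMIs of the cells named, with an exact Poisson 95% interval. A difference between the libraries is a log2 ratio of KO over WT with an exact binomial interval. Both intervals cover counting error only, and where 2 values stand without a label the library labelled KO comes first. Levels are compared between cells and not between genes.

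VEGF ligands are secreted and act mainly on endothelial cells, the lining of vessels. VEGF-A binds KDR, the main signalling receptor of blood vessels, and FLT1, which binds it tightly and signals weakly. PlGF and VEGF-B bind FLT1. VEGF-C and VEGF-D bind FLT4, the receptor known for lymphatic growth, and VEGF-C after cleavage also binds KDR. The neuropilins bind both VEGFs and class 3 semaphorins, which guide axons and vessels.

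Clusters were named from fixed markers as 15 cell types, each of them an X-like cluster whose name is used here without that ending. These included endothelial cells (1191 in the library labelled KO and 1198 in that labelled WT), lymphatic endothelial cells (81 and 83), fibro-adipogenic progenitors (FAPs, the connective tissue cells of muscle, 2142 and 1675), tenocytes (394 and 443), muscle stem cells (MuSCs, 247 and 249) and macrophages (1029 and 848). The 10 VEGF genes were kept out of the clustering and of the markers. Every fixed marker was higher in its named type than in the other cells in both libraries, except 1 of the 10 FAP markers in the library labelled WT. Pericytes were found only together with endothelial RNA (355 and 300 cells) and were left out of the named types. So were cells led by hemoglobin genes, cells led by Igha and Jchain, and dividing cells. Also left out were a mix of MuSC and endothelial RNA (72 and 77 cells), monocyte-like cells led by Lyz1 and Retnla (142 and 107) and cells led by Il5 and Gata3 (33 and 20). Within FAPs, a cluster led by Igkc and Jchain was kept.

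The promoters of 3 genes are shown because their levels carry the results below. Vegfa differed between the libraries, and of the named vessel groups Vegfc was highest in arteries and Nrp2 in lymphatics. The sequences are from RefSeq (GRCm38.p6), 5′ to 3′ on the strand of the gene, with GC boxes (GGGCGG, or CCGCCC on the other strand) in capitals. A GC box is the letter pattern known to bind Sp1. Vegfa is at chr17:46016993-46032377, Vegfc at chr8:54077532-54186454 and Nrp2 at chr1:62703317-62818692, and each stretch lies just upstream of the annotated gene: chr17:46032378-46032627 on the minus strand for Vegfa, chr8:54077282-54077531 on the plus strand for Vegfc and chr1:62703067-62703284 on the plus strand for Nrp2, where the last 32 of 250 bases overlap an annotated exon and are not shown.
Vegfa: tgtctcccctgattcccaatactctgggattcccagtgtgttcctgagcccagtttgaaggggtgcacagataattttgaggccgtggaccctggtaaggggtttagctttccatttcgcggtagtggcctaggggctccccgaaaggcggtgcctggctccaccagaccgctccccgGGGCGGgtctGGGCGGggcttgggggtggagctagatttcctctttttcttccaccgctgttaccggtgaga
Vegfc: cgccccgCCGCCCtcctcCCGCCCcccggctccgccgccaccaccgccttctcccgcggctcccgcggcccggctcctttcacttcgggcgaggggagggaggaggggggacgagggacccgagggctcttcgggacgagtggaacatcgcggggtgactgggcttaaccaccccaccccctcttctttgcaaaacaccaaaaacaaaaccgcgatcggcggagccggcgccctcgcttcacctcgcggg
Nrp2: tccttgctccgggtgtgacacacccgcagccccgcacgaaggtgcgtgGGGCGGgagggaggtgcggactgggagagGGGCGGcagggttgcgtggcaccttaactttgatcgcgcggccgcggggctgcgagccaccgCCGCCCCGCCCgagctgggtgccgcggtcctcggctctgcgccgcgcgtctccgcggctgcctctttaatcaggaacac
Vegfa held 2 GC boxes and Vegfc 2, and the shown stretch of Nrp2 held 4, of which the last 2 overlap. Over the 250 bases before the start, 32.7% of 32851 promoters held at least 1 GC box. The core ACGTG, bound by hypoxia-inducible factors and searched on the other strand as CACGT, was in none of these 3 stretches and in 16.6% of all promoters. A second Vegfa promoter entry, which lies inside the gene and is not shown, held 1 such core in its 250 bases. Sequence further away was not searched. The core of ETS factors, GGAA or TTCC, was in 93.4% of all promoters and so says little about any one of them.

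Vegfa, the ligand that drives sprouting, was read in most cell types, and FAPs held most of it. In FAPs the level of Vegfa was 115 CPM (110.1 to 120.1) in the library labelled KO and 202 CPM (194 to 210.1) in that labelled WT, from 2071 and 2572 UMIs. FAPs thus carried 59.3% and 55.1% of the Vegfa UMIs, while they carried 35.4 and 28.4% of all UMIs. NK cells had the highest level in both libraries, at 266 CPM (183 to 373) in the library labelled KO and 227 CPM (158 to 318) in that labelled WT, from only 33 and 34 UMIs, and in the library labelled WT they were within counting error of FAPs. FAPs were instead highest in both libraries with coarser clusters (resolution 0.4 in place of 0.8), and in that labelled WT where each cell was named by its own marker score. MuSCs followed with 111 CPM (94.4 to 129) in the library labelled KO and 146 CPM (129 to 165) in that labelled WT, within counting error of FAPs in the library labelled KO. Endothelial cells, the main receivers of VEGF-A, held little of it themselves, 27.9 and 59.7 CPM.

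Vegfb, a ligand linked to fatty acid handling in oxidative tissue, was highest in the mature muscle cells. Its level there was 72.0 CPM (47.0 to 106) in the library labelled KO and 101 CPM (48.4 to 186) in that labelled WT, but this rests on 26 and 10 UMIs. In the library labelled WT, lymphatic endothelial cells were instead highest with cells of at least 1000 UMIs, without integration of the libraries and under the marker score. The mature muscle cells of the library labelled WT also held endothelial markers at 2452 CPM, against 169 CPM in the library labelled KO, and the part of this in other genes of that group was not tested. Elsewhere Vegfb was low, 16.4 and 21.0 CPM in macrophages and 4.41 and 5.09 CPM in endothelial cells.

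Vegfc, the lymphatic growth factor, was shared between vessel lining and connective tissue. Endothelial cells held 27.4 CPM (23.7 to 31.6) in the library labelled KO and 30.2 CPM (26.4 to 34.4) in that labelled WT. Tenocytes held 22.9 CPM (18.8 to 27.6) in the library labelled KO and 31.2 CPM (26.7 to 36.3) in that labelled WT, which did not differ from endothelial cells beyond counting error in either library. The highest type depended on the clustering, and was smooth muscle in both libraries with finer clusters (resolution 1.2) and under the marker score. MuSCs had 11.6 and 28.5 CPM and FAPs 12.5 and 18.0 CPM. Vegfd, the other ligand of FLT4, was by contrast read mainly in FAPs. FAPs held 18.2 CPM (16.3 to 20.3) in the library labelled KO and 16.7 CPM (14.5 to 19.1) in that labelled WT, which was 90.4% and 84.1% of all Vegfd UMIs and 14.5-fold and 12.7-fold the level of the other named cells.

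Pgf, which binds FLT1 and not KDR, was highest in lymphatic endothelial cells, which held little Flt1, and next in endothelial cells. Lymphatic endothelial cells held 99.97 CPM (77.2 to 127) in the library labelled KO and 231 CPM (196 to 271) in that labelled WT, from 65 and 152 UMIs. Endothelial cells held 56.7 CPM (51.3 to 62.6) in the library labelled KO and 93.2 CPM (86.4 to 100.4) in that labelled WT. FAPs followed with 27.8 and 38.4 CPM, and macrophages had 5.18 and 10.7 CPM. The clusters that joined pericyte and endothelial RNA, kept apart from the named types, held 113 and 150.1 CPM of Pgf and 1471 and 1332 CPM of Flt1.

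By fold over the other named cells, the receptors were far more restricted than the ligands, although Vegfd UMIs were mostly in FAPs. Flt1 was at 1992 CPM (1959 to 2025) in the library labelled KO and 1900.0 CPM (1869 to 1932) in that labelled WT in endothelial cells, 125-fold and 74.2-fold the level of the other named cells. Lymphatic endothelial cells held only 46.1 and 56.2 CPM of it. Kdr was at 1244 CPM (1218 to 1270.2) in the library labelled KO and 1052 CPM (1029 to 1076) in that labelled WT in endothelial cells and stayed high in lymphatics, at 657 CPM (596 to 722) in the library labelled KO and 591 CPM (534 to 653) in that labelled WT. Flt4 had the opposite place: lymphatic endothelial cells held 879.7 CPM (809 to 955) in the library labelled KO and 766 CPM (701 to 836) in that labelled WT and endothelial cells 56.4 and 47.6 CPM. The lymphatic cells, 1.14 and 1.31% of all cells, carried 44.6% and 46.2% of the Flt4 UMIs.

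The neuropilins were wider. Nrp1 was at 919 CPM (896 to 941) in the library labelled KO and 748 CPM (729 to 768) in that labelled WT in endothelial cells, then 349 and 224 CPM in smooth muscle, 187 and 161 CPM in macrophages and 134 and 130.5 CPM in FAPs. Nrp2 led in lymphatics, at 664 CPM (603 to 730.1) in the library labelled KO and 485 CPM (433 to 541) in that labelled WT. Endothelial cells held 327 and 268 CPM of it and macrophages 284 CPM (271 to 299) in the library labelled KO and 232 CPM (219 to 247) in that labelled WT, ahead of Schwann cells at 93.2 and 119.8 CPM and FAPs at 20.7 and 18.5 CPM.

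Read against the whole table, 4 of the 10 genes (Flt1, Kdr, Flt4 and Nrp1) were at least 4-fold above the other named cells in endothelial cells in both libraries, where 5.99% of 14152 genes were. In lymphatic endothelial cells it was 4 (Pgf, Kdr, Flt4 and Nrp2) beside 4.11% of genes, in FAPs 1 (Vegfd) beside 2.97%, and in macrophages 0 beside 4.85%. For each vessel type the other vessel type was left out of the cells compared with it. Endothelial or lymphatic cells were the highest type for 6 of the 10 genes in both libraries.

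**Figure D1:**
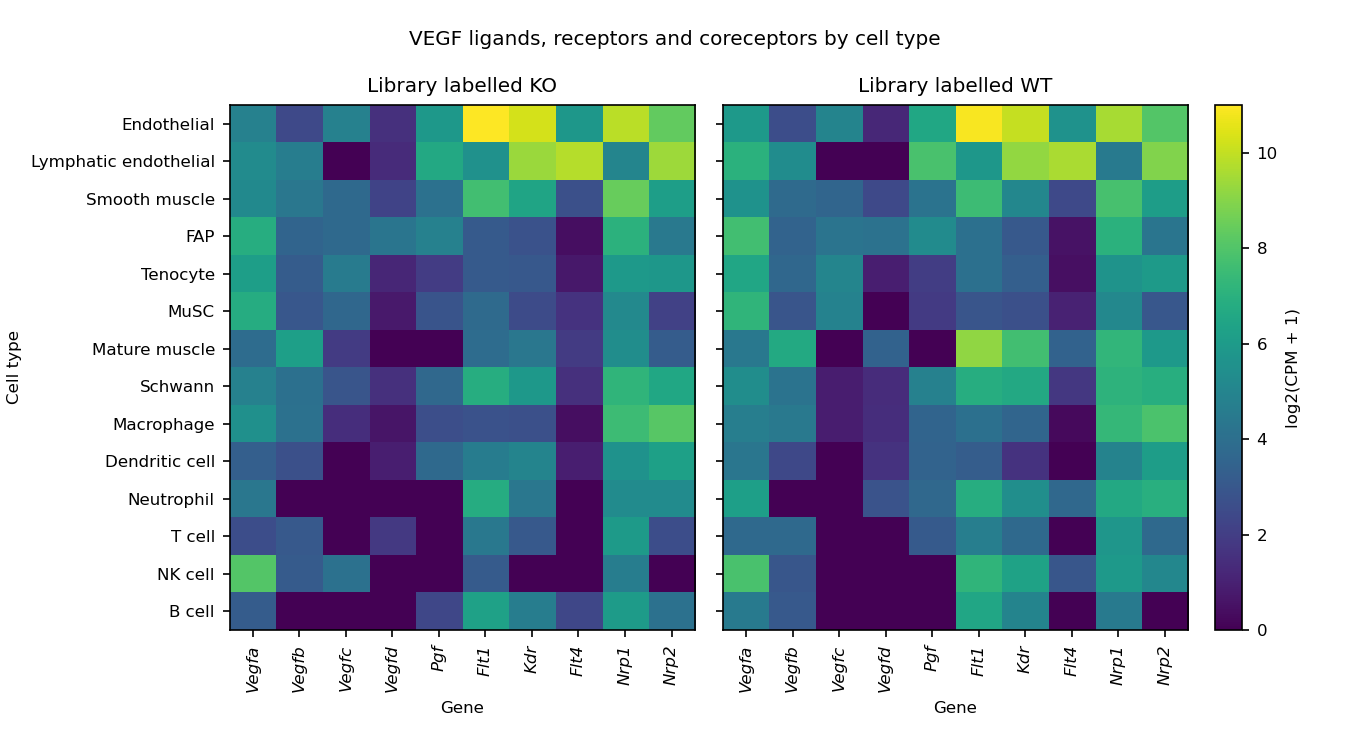
Level of each VEGF gene (columns) in 14 named cell types (rows, mast cells being under 25 cells) for the library labelled KO (left) and that labelled WT (right), colored by log2(CPM + 1). The receptors Flt1, Kdr and Flt4 are brightest in the vessel rows, while Vegfa, Nrp1 and Nrp2 are spread over many rows.

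RNA set free by broken cells can put UMIs of a gene into cells that do not make it, so the receptors were set against the endothelial markers carried by each other type. Of 26 sums (13 types that are not endothelial, in 2 libraries), the lower bound of Kdr was above the level those markers give in 0, that of Flt1 in 1 and that of Flt4 in 1. In FAPs, for example, Flt1 was at 7.61 and 15.7 CPM, where the endothelial markers give 23.7 and 33.3 CPM. Nrp1 was above it in 19 sums, with 8 types above in both libraries, and Nrp2 in 15, with 7 types. Vegfa was above it in 25 sums and Pgf in 14. For Vegfa this says little, since endothelial cells held only 27.9 and 59.7 CPM of it and so would give little. Free RNA of FAPs, which held most of the Vegfa, was not modelled, so these sums do not show which types make Vegfa. Apart from those 2 sums, receptor levels outside vessels were thus within counting error of what endothelial RNA would give or under it. That does not hold for the neuropilins in macrophages (187 and 161 CPM of Nrp1 where 6.73 and 9.10 CPM would be given) or for Vegfa in FAPs.

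Single cells showed the same places at equal depth. After thinning every cell to 1000 UMIs, which left out 24 and 30 endothelial cells, Flt1 was read in 81.8% (79.5 to 84.0) and 83.3% (81.0 to 85.4) of endothelial cells. Kdr was read in 68.7% and 61.0% and Nrp1 in 61.1% and 51.7% of them. In MuSCs, which should lack these receptors, the shares were 0.412% and 1.65% for Flt1 and 0.823% and 0.412% for Kdr. Flt4 was read in 57.5% (45.4 to 69.0) and 50% (37.6 to 62.4) of lymphatic and 6.51% and 5.39% of endothelial cells. Without thinning, at median depths of 4286 and 4554 UMIs in endothelial cells and 5484 and 6433 in MuSCs, Kdr was read in 94.9% and 92.6% of endothelial cells and in 1.62% and 4.02% of MuSCs. With thinning to 1000 UMIs, the ligand Vegfa was read in 11.8% and 17.4% of FAPs, and the coreceptor Nrp2 in 24.7% and 19.4% of macrophages.

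Endothelial and lymphatic cells clustered together gave arterial, capillary, venous and lymphatic groups by fixed markers, again X-like, with 128, 751, 108 and 81 cells in the library labelled KO and 128, 742, 116 and 82 in that labelled WT. Of these groups Flt1 was highest in arteries, at 2491 CPM (2392 to 2593) in the library labelled KO and 2531 CPM (2432 to 2632) in that labelled WT. It was 1832 and 1773 CPM in capillaries, 1679.7 and 1501 CPM in veins and 126 and 109 CPM in lymphatics. Single clusters held more Flt1 than arteries. They were a capillary cluster led by Sag and Slc5a3 (2716 and 2845 CPM) and an unnamed cluster led by Adamts4 and Plaur (2644 and 2757 CPM). Unnamed clusters are not part of the groups. Kdr was instead highest in capillaries, at 1417 CPM (1380.2 to 1455) in the library labelled KO and 1224 CPM (1191 to 1257) in that labelled WT, followed by arteries (1104 and 857 CPM), veins (943 and 683 CPM) and lymphatics (636 and 611 CPM). In the library labelled WT veins and lymphatics were within counting error for Kdr. An unnamed cluster led by Ogt and Kit held 2361 and 1929 CPM of Kdr, above capillaries. Both receptors were read in the same cell, after thinning, in 59.4% and 55.3% of capillary and 4% and 1.49% of lymphatic cells.

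The lymphatic receptor Flt4 and the coreceptor Nrp2 split the vessels the other way. Flt4 was at 864 CPM (794 to 938) in the library labelled KO and 728 CPM (666 to 795) in that labelled WT in lymphatics, 14.1-fold and 13.99-fold the capillary level. Of the 4 groups Nrp2 was lowest in arteries (141 and 119.9 CPM), with 338 and 281 CPM in capillaries and 432 and 294 CPM in veins. It was highest in lymphatics, at 662 CPM (601 to 727) in the library labelled KO and 475 CPM (425 to 529.8) in that labelled WT. Capillaries and veins were within counting error in the latter library. Single clusters departed from this order. The unnamed cluster led by Ogt and Kit held 509 and 516 CPM of Nrp2, from 52 and 54 UMIs. That level was above veins in both libraries and above lymphatics in the library labelled WT, with counting error not compared. A capillary cluster led by Apln and Chga held 445 and 340 CPM of Nrp2. Nrp1 was by contrast lowest in lymphatics, at 45.6 and 42.2 CPM. Of the 4 groups it was highest in capillaries, at 1004 and 837 CPM, a gap of 22.0-fold and 19.9-fold. Arteries held 860 and 650 CPM of Nrp1 and veins 761 and 598 CPM. Flt4 and Nrp2 were read in the same thinned cell in 36% and 20.9% of lymphatic cells.

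The ligands also had places along the vessels. Vegfc was at 89.2 CPM (71.3 to 110.1) in the library labelled KO and 102 CPM (82.7 to 124) in that labelled WT in arteries, 5.67-fold and 5.97-fold the capillary level. In lymphatics, where its receptor Flt4 is highest, Vegfc had 1 and 0 UMIs, and the count of 0 in the library labelled WT allows up to 4.36 CPM (3 UMIs). Pgf was 10.4 and 29.5 CPM in arteries, 66.5 and 98.7 CPM in capillaries and 111 CPM (87.0 to 139.6) in the library labelled KO and 224 CPM (189.9 to 262) in that labelled WT in lymphatics. Within the capillary cells it was uneven. A cluster led by Apln and Chga (158 and 161 cells) held 165 CPM (145 to 188) in the library labelled KO and 240.1 CPM (217 to 265) in that labelled WT of Pgf, from 239 and 396 UMIs, while a cluster led by Mbp and Arl4d (208 and 222 cells) held 3.14 and 2.83 CPM, from 4 and 4 UMIs. Apln, the ligand of the apelin receptor, is a gene that VEGF is known to induce in sprouting tip cells. These clusters were found in the same cells, so the gap of 52.7-fold and 85.0-fold is a description.

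**Figure D2:**
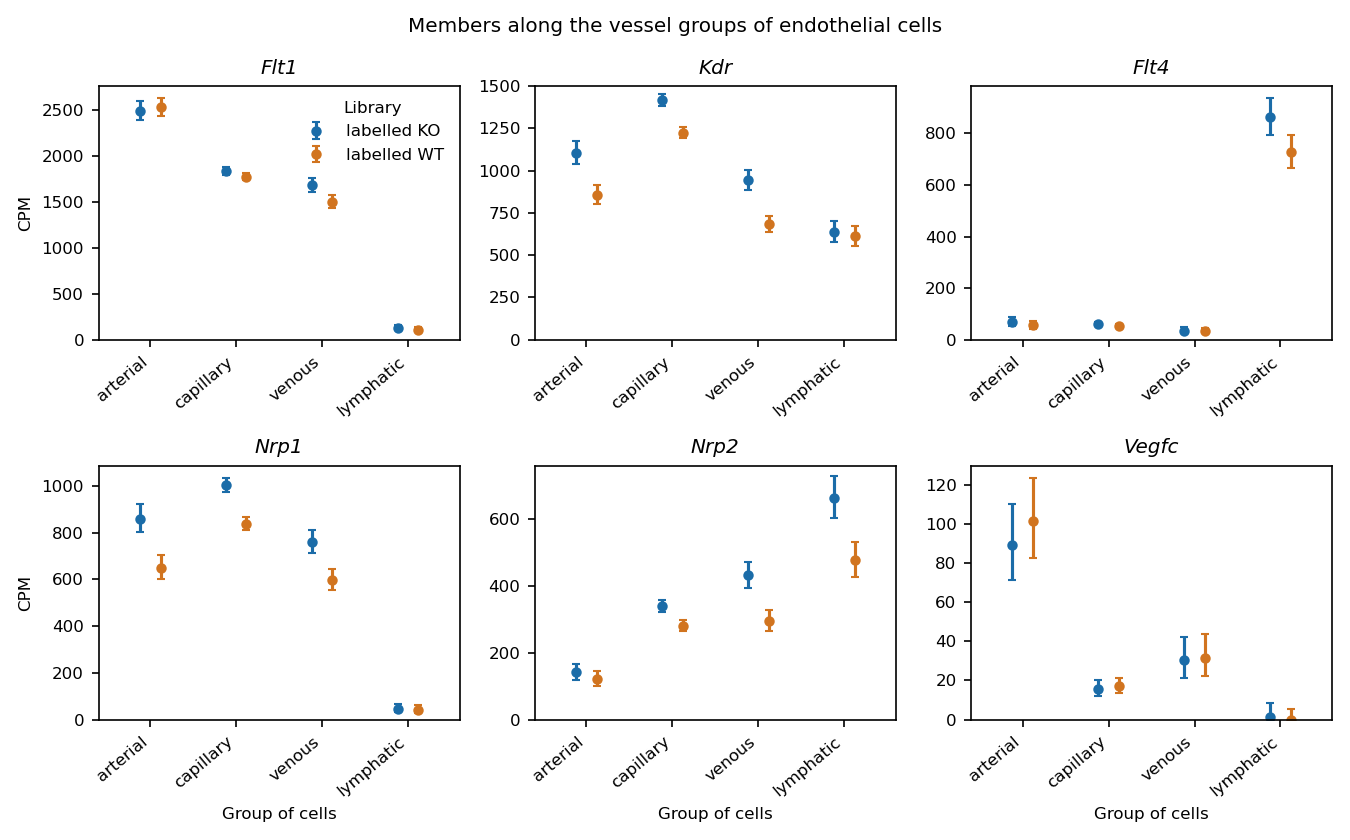
CPM of 6 VEGF genes in arterial, capillary, venous and lymphatic groups, blue for the library labelled KO and orange for that labelled WT, with 95% Poisson intervals as bars. Flt4 and Nrp2 peak in lymphatics, Kdr and Nrp1 in capillaries, Flt1 and Vegfc in arteries, in both libraries.

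FAPs and tenocytes clustered together gave 7 groups named by the genes that the study uses or by their leading genes. Vegfa in the library labelled WT ranged from 87.5 CPM in the Fmod Wif1 group to 293 CPM in the Hsd11b1 Mme group. In the library labelled KO the Pi16 Dpp4 and Hsd11b1 Mme groups, at 138 and 134 CPM, were the highest named groups and within counting error of each other. Vegfd was highest in the Pi16 Dpp4 group, known as the progenitor state of FAPs, at 45.8 CPM (38.8 to 53.6) in the library labelled KO and 46.7 CPM (38.7 to 55.8) in that labelled WT. The Sfrp4 group held 14.3 and 12.7 CPM. A cluster led by Igkc and Jchain is part of that group and held 73 of its 92 and 29 of its 51 Vegfd UMIs. Vegfc, which binds the same receptor, had the reverse order, with 1.18 and 2.72 CPM in the Pi16 Dpp4 group (only 4 and 7 UMIs) and 22.0 CPM (18.5 to 25.9) in the library labelled KO and 21.9 CPM (17.6 to 27.0) in that labelled WT in the Sfrp4 group.

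Pgf and Nrp1 divided the FAPs too. Pgf was 44.1 CPM (37.5 to 51.5) in the library labelled KO and 69.4 CPM (58.7 to 81.5) in that labelled WT in the Hsd11b1 Mme group and 8.89 and 8.54 CPM in the Clu Myoc group. Of the named groups Nrp1 was highest in the Clu Myoc group, at 237 CPM (215 to 260.4) in the library labelled KO and 226 CPM (203 to 251) in that labelled WT, against 67.6 and 69.7 CPM in the Pi16 Dpp4 group and 37.5 and 32.4 CPM in the Fmod Wif1 group. The Clu Myoc group was thus 3.502-fold and 3.24-fold above the Pi16 Dpp4 group.

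**Figure D3:**
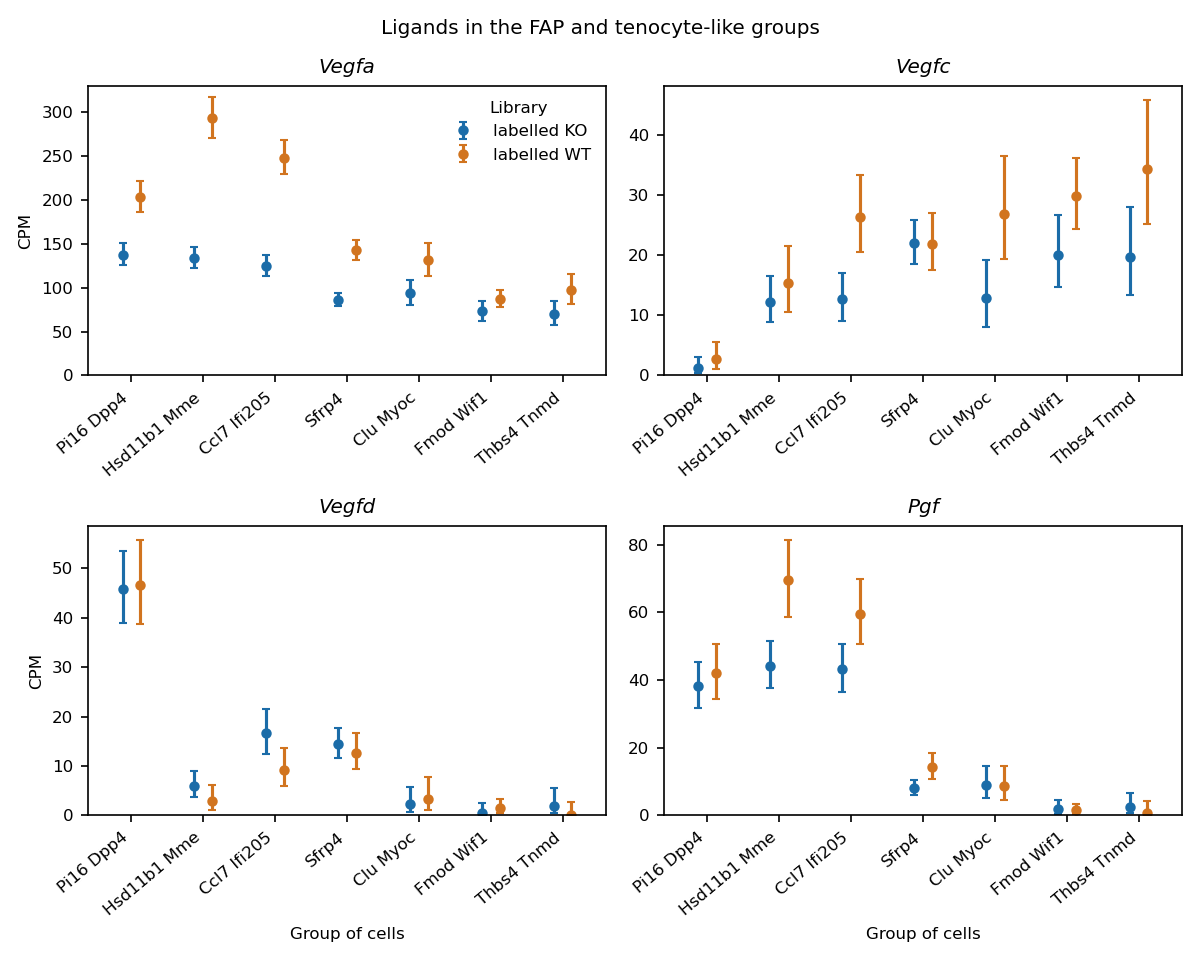
CPM of 4 VEGF ligands (Vegfa, Vegfc, Vegfd and Pgf) in the groups of FAPs and tenocytes, blue for the library labelled KO and orange for that labelled WT, with 95% Poisson intervals as bars. Vegfd is highest and Vegfc lowest in the Pi16 Dpp4 group, and the blue Vegfa points lie below the orange ones in 7 of 7 groups.

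Macrophages gave 4 named groups, with names from the genes the study uses. Unnamed clusters, which hold a large part of the macrophage UMIs, are not part of these groups. Of the named groups Vegfa was highest in the Trem2 Gpnmb group, cells with lipid-handling genes, at 149 CPM (124 to 179) in the library labelled KO and 54.6 CPM (39.1 to 74.0) in that labelled WT, from 120 and 41 UMIs. The Lyve1 Folr2 group, the genes of resident macrophages, had 0 and 2 UMIs, and the count of 0 allows up to 4.43 CPM. The coreceptors were read throughout. Nrp1 was highest in the Lyve1 Folr2 group, at 306 CPM (266 to 351) in the library labelled KO and 254 CPM (219 to 293) in that labelled WT, and 97.6 and 91.5 CPM in the Ccr2 Nlrp3 group, the genes of recruited monocytes. Nrp2 was highest of the named groups in the Ccl7 Tnf group, at 403 CPM (363 to 446) in the library labelled KO and 387 CPM (342 to 436) in that labelled WT, and 226 and 162 CPM in the Ccr2 Nlrp3 group. An unnamed macrophage cluster led by Ednrb and Cbr2 held 451 and 371 CPM of it.

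**Figure D4:**
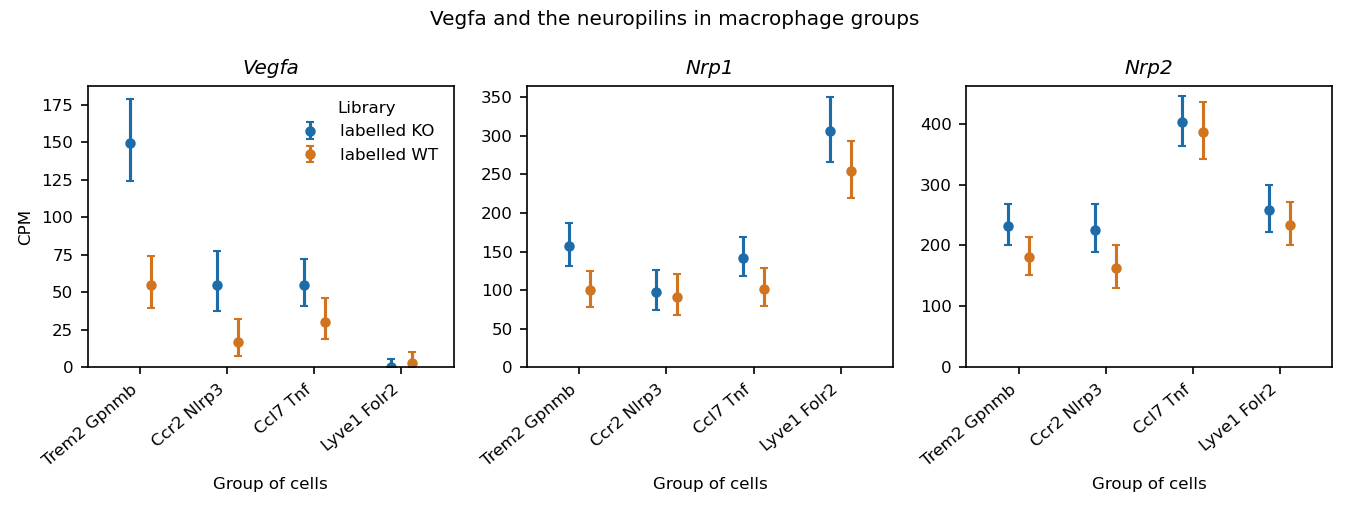
CPM of VEGF genes in the 4 named macrophage groups, blue for the library labelled KO and orange for that labelled WT, with 95% Poisson intervals as bars. Vegfa is highest in the Trem2 Gpnmb group and higher in the blue than in the orange points of the 3 groups with at least 20 UMIs.

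The libraries differed in Vegfa and Pgf of the vessels. A gene was counted as different where it was past 1.5-fold, its interval left out 0 and both libraries together held at least 20 UMIs. In endothelial cells 2 of the 10 genes were, Vegfa and Pgf, both lower in the library labelled KO, where 7.41% of 11523 genes differed in either direction. Endothelial Vegfa was 27.9 CPM (24.1 to 32.0) in the library labelled KO and 59.7 CPM (54.2 to 65.5) in that labelled WT, from 196 and 445 UMIs, a log2 ratio of -1.10 (-1.35 to -0.85). Endothelial Pgf had a log2 ratio of -0.72 (-0.90 to -0.54), which with means over cells was -0.56 and no longer past 1.5-fold. The receptors and coreceptors did not pass in endothelial cells: the log2 ratios were 0.07 (0.03 to 0.10) for Flt1, 0.24 (0.20 to 0.29) for Kdr and 0.30 (0.24 to 0.35) for Nrp1. The median over all genes in these cells was 0.03.

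Lymphatic cells had the same pattern. Both Vegfa and Pgf of 8 genes measured there passed, beside 10.1% of genes. Lymphatic Vegfa was 38.4 CPM (24.9 to 56.8) in the library labelled KO and 129 CPM (103 to 159.8) in that labelled WT, from 25 and 85 UMIs, a log2 ratio of -1.75 (-2.45 to -1.09). Lymphatic Pgf had a log2 ratio of -1.21 (-1.65 to -0.78). Within the vessels Vegfa was lower in the library labelled KO in 4 of 4 groups and passed in all 4, at -0.97 (-1.31 to -0.64) in capillaries and -1.75 (-2.47 to -1.08) in veins on the log2 scale. In arteries it passed narrowly, at -0.71 (-1.41 to -0.03), from 30 and 50 UMIs. The share of all genes passing is not given by group, here or within FAPs and macrophages. Pgf was lower in 4 of 4 and passed in 2, lymphatics and arteries.

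In FAPs Vegfa was also lower in the library labelled KO. Its log2 ratio was -0.81 (-0.90 to -0.73), a 1.76-fold gap from 2071 and 2572 UMIs. It was lower in 7 of 7 groups of FAPs and tenocytes and passed in 3: -1.13 (-1.30 to -0.95) in the Hsd11b1 Mme group, -0.99 (-1.17 to -0.81) in the Ccl7 Ifi205 group and -0.72 (-0.89 to -0.55) in the Sfrp4 group. The Sfrp4 group was made of 3 clusters. Those led by Igkc and Jchain and by Gdf10 and Fmo2 passed, lower, at -0.78 (-0.99 to -0.57) and -0.80 (-1.21 to -0.40). The one led by C7 and Txnip did not, at 162 and 153 CPM. Of 9 genes measured in FAPs 2 passed, Vegfa and Flt1, beside 9.74% of genes. Flt1 in FAPs was under the level that endothelial RNA would give, as above. FAP Vegfc and Pgf leaned the same way without passing, at -0.53 (-0.80 to -0.25) and -0.47 (-0.65 to -0.29). FAP Vegfd did not, at 0.13 (-0.13 to 0.38).

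By group, the other ligands of FAPs and tenocytes were uneven. Vegfc was lower in the library labelled KO in 5 of 6 groups with at least 20 UMIs and passed in 3, with 12.8 and 26.9 CPM in the Clu Myoc group (log2 -1.07 (-1.88 to -0.30)), and further in the Ccl7 Ifi205 and Thbs4 Tnmd groups. Pgf was lower in 4 of 5 and passed in 2, the Hsd11b1 Mme and Sfrp4 groups. Vegfd passed once, higher in the Ccl7 Ifi205 group at 16.6 and 9.17 CPM. Nrp1 passed in 0 of 7 groups, and Nrp2 in 1 of 7, higher in the Sfrp4 group at 22.0 and 13.2 CPM.

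Macrophage Vegfa had the opposite sign. It was 44.4 CPM (39.1 to 50.1) in the library labelled KO and 25.3 CPM (20.9 to 30.3) in that labelled WT, from 257 and 118 UMIs, a log2 ratio of 0.81 (0.49 to 1.14). In 3 of 3 named groups with enough UMIs macrophage Vegfa was higher in KO than in WT, and it passed in all 3. The values were 1.71 (0.61 to 2.96) in the Ccr2 Nlrp3 group, 1.45 (0.93 to 2.001) in the Trem2 Gpnmb group and 0.87 (0.11 to 1.68) in the Ccl7 Tnf group. The unnamed clusters led by Tulp3 and Hspa1b and by Ednrb and Cbr2 each held under 20 Vegfa UMIs over both libraries. No ratio is given there, so a higher level is not shown for macrophages outside the named groups. In all, 4 of 7 genes measured in macrophages passed, beside 10.8% of genes. The count was 2 with no integration, under the marker score and with 10 CPM added, and under the marker score Flt1 and Kdr turned sign (0.0949 and 0.30). Beside Vegfa, the 3 others that passed (Pgf, Flt1 and Kdr) were lower in the library labelled KO and low in level: Pgf was 5.18 and 10.7 CPM, Flt1 5.87 and 15.6 CPM and Kdr 5.35 and 10.9 CPM. Endothelial markers in macrophages were 74.6 and 115 CPM, lower in the same library, and their part in these 2 receptors was not tested. Macrophage Nrp1 and Nrp2 were at 0.22 (0.08 to 0.35) and 0.29 (0.18 to 0.40) and did not pass. By group, Nrp1 passed in the Trem2 Gpnmb group, at 157 and 99.8 CPM (log2 0.65 (0.23 to 1.08)), and Nrp2 in none of the 4 named groups. Nrp2 passed in an unnamed cluster led by Tulp3 and Hspa1b, at 200.5 and 129 CPM (log2 0.64 (0.24 to 1.05)).

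Counts in the other types rest on lower levels. In MuSCs 1 of 5 genes passed, Vegfc, at 11.6 and 28.5 CPM (log2 -1.29 (-2.18 to -0.48)), beside 18.1% of genes, the highest background of all types. MuSC Vegfa was at -0.40 (-0.69 to -0.12). In tenocytes 1 of 8 passed, Flt1, beside 10%, and Vegfa was at -0.35 (-0.55 to -0.14). In smooth muscle 2 of 5 passed, Kdr and Nrp1, both higher in the library labelled KO, beside 10.6%. Smooth muscle Nrp1 was 349 CPM (301 to 401) in the library labelled KO and 224 CPM (183 to 272) in that labelled WT, a log2 ratio of 0.63 (0.28 to 0.99), and endothelial markers there were 977 and 846 CPM. In Schwann cells 2 of 7 passed (Pgf and Kdr, lower), beside 9.41%. In dendritic cells 3 of 6 passed (Flt1, Kdr and Nrp1, higher), beside 12.3%. Dendritic Kdr rests on 34 and 2 UMIs, and endothelial markers in these cells were 232 and 47.2 CPM. These shares are close to or a few genes away from the background, and with so few genes nothing is read from them.

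**Figure D5:**
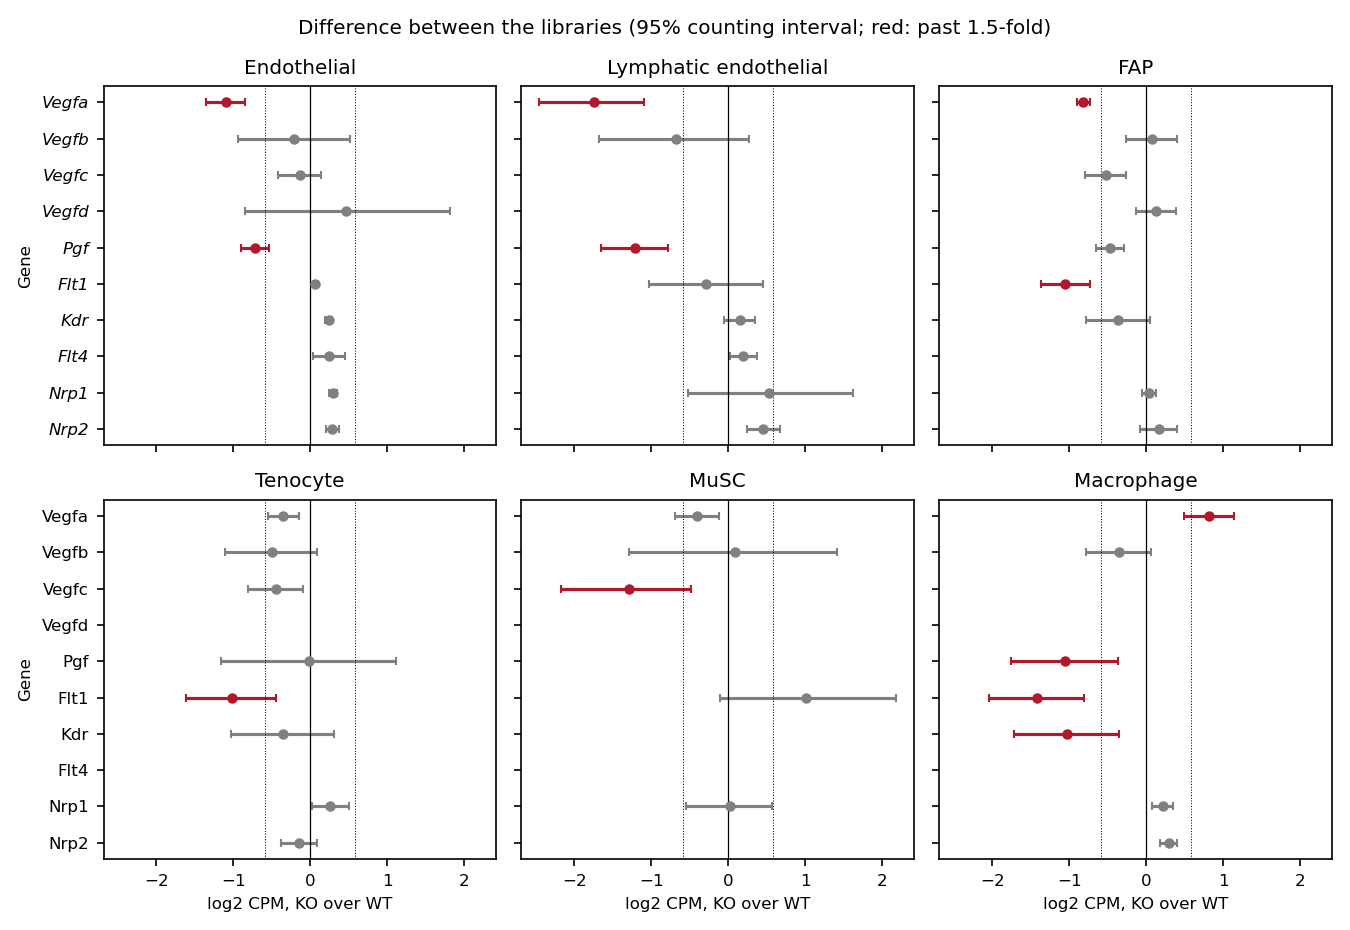
Log2 ratio of CPM, KO over WT, for each VEGF gene in 6 cell types, with 95% counting intervals and red for genes past 1.5-fold whose interval leaves out 0. Dotted lines mark 1.5-fold, and genes under 20 UMIs have no point. Vegfa lies left of 0 in endothelial cells (-1.10), lymphatics (-1.75) and FAPs (-0.81) and right of 0 in macrophages (0.81).

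Genes that respond to tissue digestion also differed between the libraries. The summed level of 11 such genes (Fos, Jun, Egr1, Atf3, Hspa1a and others, a list chosen after values were seen) was 29400 and 23687 CPM in endothelial cells, 16666 and 12221 CPM in FAPs, 17016 and 9113 CPM in MuSCs and 20955 and 19438 CPM in macrophages, with the larger sum in the library labelled KO each time. In lymphatic cells it was 21015 and 20265 CPM and in tenocytes 16611 and 14638 CPM. Of the 11 genes, 8 were higher in the library labelled KO in endothelial cells, 10 in FAPs, 10 in MuSCs, 9 in tenocytes, 6 in lymphatic cells and 4 in macrophages. The part of these genes in the ligand differences was not tested.

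The wider pathway was described from fixed lists, in endothelial cells, FAPs and macrophages. In endothelial cells 0 of 17 genes of the chain below KDR passed, with a median log2 ratio of 0.01. Over all genes 7.41% passed in these cells, so 0 in lists of this size is near the background. The kinase Fyn was 112 and 111 CPM, log2 0.01 (-0.13 to 0.15), and Pik3r1, a PI3-kinase subunit, was 101 and 83.0 CPM, log2 0.28 (0.12 to 0.44). None of 9 membrane brakes on KDR passed either, among them Cdh5, the junction cadherin, at 2399 and 2127 CPM, log2 0.17 (0.14 to 0.21), and Ptprb, the phosphatase that acts on it, at 1416 and 1305 CPM, log2 0.12 (0.08 to 0.16). Of 12 genes that VEGF is known to induce in endothelium 0 passed, with Pdgfb, which recruits pericytes, at 286 and 256 CPM, log2 0.16 (0.06 to 0.25). The counts were also 0 of 5 class 3 semaphorins, 0 of 4 plexins (Plxnd1, the receptor that pairs with neuropilins, 497 and 458 CPM, log2 0.12 (0.05 to 0.19), and Plxna2, 244 and 252 CPM, log2 -0.04 (-0.14 to 0.05)), 0 of 4 genes of VEGF-C and VEGF-D processing, 0 of 9 of oxygen sensing and 0 of 3 of the angiopoietin and TIE system. Of 8 heparan sulfate genes, which shape the matrix that holds VEGF, 1 was higher and 1 lower in the library labelled KO: the sulfatases Sulf2 (4.12 and 1.88 CPM, log2 1.13 (0.17 to 2.17)) and Sulf1 (6.11 and 9.92 CPM, log2 -0.70 (-1.28 to -0.14)), both at low level.

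In FAPs the oxygen-sensing genes had 2 of 10 lower in the library labelled KO and 0 higher, where 9.74% of all genes passed. Epas1, which encodes the hypoxia-inducible factor HIF-2α, was 28.0 and 47.9 CPM, log2 -0.77 (-0.95 to -0.60), and Egln1, the prolyl hydroxylase that marks such factors for breakdown, was 50.1 and 76.7 CPM, log2 -0.61 (-0.75 to -0.48). Rcan1, a calcineurin inhibitor, was 321 and 159 CPM, log2 1.02 (0.94 to 1.09), the only VEGF-induced gene of 12 that was higher, while Cxcr4 and Pdgfb were lower at under 4 CPM. Ccbe1, the cofactor that lets VEGF-C be cleaved, was 40.2 and 26.5 CPM, log2 0.60 (0.41 to 0.79), 1 of 7 processing genes. Ptprb and Cdh5 of 9 brakes and Tie1 of 5 TIE genes were lower, and these are endothelial genes: Cdh5 was 6.89 and 14.6 CPM, log2 -1.09 (-1.43 to -0.75). No gene of the chain below KDR (19), the semaphorins (6), the plexins (5) or heparan sulfate (10) passed. Sema3c, a ligand of the neuropilins, was high in FAPs, at 403 and 353 CPM, log2 0.19 (0.14 to 0.25), without passing.

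In macrophages 3 of 8 oxygen-sensing genes were lower in the library labelled KO and 0 higher, where 10.8% of all genes passed, and the median of the list was 0.06. Hif1a and Arnt, the subunits of the hypoxia-inducible factor, named here after their values were seen, leaned the other way without passing, at log2 0.31 (0.12 to 0.49) and 0.55 (0.24 to 0.87). Epas1 was 10.5 and 18.4 CPM, log2 -0.81 (-1.30 to -0.32), Egln1 29.2 and 46.2 CPM, log2 -0.66 (-0.96 to -0.37) and Vhl, the ubiquitin ligase subunit that removes hydroxylated factors, 7.08 and 11.8 CPM, log2 -0.73 (-1.35 to -0.12). Sema3c was 26.1 and 12.0 CPM, log2 1.12 (0.67 to 1.59), the 1 of 2 semaphorins that passed. Spry1, a brake on receptor kinases, was 11.6 and 4.71 CPM, log2 1.30 (0.58 to 2.06), higher, and Ptprb of the same 9 genes was lower. Angpt1 (4.66 and 1.71 CPM, log2 1.44 (0.27 to 2.79)) and Tek, its receptor (6.73 and 3.64 CPM, log2 0.89 (0.03 to 1.80)), were higher and Tie1 lower, all under 7 CPM. Pcsk5 of 4 processing genes was higher (6.56 and 3.43 CPM, log2 0.94 (0.06 to 1.88)), and of 10 heparan sulfate genes Sulf1 was higher (12.4 and 6.21 CPM, log2 1.001 (0.36 to 1.68)) and Gpc1 lower (1.21 and 3.43 CPM, log2 -1.50 (-3.03 to -0.14)). No gene of the chain below KDR (19), the induced genes (8) or the plexins (5) passed. In smooth muscle, of these lists, the brakes (Ptprb and Spry1) and the induced genes (Rcan1 and Unc5b) had 2 higher each, oxygen sensing had Esrra lower and the other 6 lists had none, where 10.6% of all genes passed. In MuSCs the brakes had 3 higher of 8, oxygen sensing 2 higher (Hif1a and Arnt) and 1 lower (Egln1) of 8, and the chain below KDR 2 higher and 1 lower of 17. The induced genes and the plexins had 1 higher and 1 lower each, heparan sulfate 2 higher, semaphorins and processing 1 higher each and the TIE genes none, where 18.1% of all genes passed.

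The genes most like each VEGF gene were found by Pearson's r of log2(CPM + 1) over the same 28 sums (14 types in 2 libraries), which share cells, depth and any free RNA, and with no test. Kdr was most like Gpihbp1 (0.97), the capillary anchor of lipoprotein lipase, then Podxl and Rasip1. Flt1 was most like Adgrf5 (0.93), Fabp4 and Aqp7, and Flt4 like Cldn5 (0.90), the tight junction claudin of endothelium, Klhl4 and She. Pgf was most like Reep3 (0.88), Enpp3 and Plvap. Nrp1 was most like Kitl (0.86), Slfn5 and Lims2, and Nrp2 like Nhsl2 (0.85), Ier3 and Parvb. Vegfc was most like Ankrd29 (0.85), Mpped2 and Rhbdl3. The values were lower for Vegfb with Mlf2 (0.83), Zdhhc16 and Slc2a8, for Vegfa with Hhat (0.81), Zbed5 and Trio, and for Vegfd with Gm9780 (0.80), Mst1r and Duox1. No VEGF gene was among the 3 genes most like another.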

How the data were processed

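Single-cell RNA sequencing (10x Genomics, 5′ kit) of digested gastrocnemius gave 1 library for each genotype, with no replicate. The authors aligned and counted reads with Cell Ranger (version 2.1.1 and genome build mm10 in the submitters' processing notes), removed doublets with DoubletFinder and cells rich in mitochondrial RNA, and deposited 1 table of 19169 genes by 13432 cells. Its values are the natural log of 1 plus UMIs per 10000, as the authors made them. No mitochondrial gene is listed, so that filter could not be varied.

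The log was undone and values were rounded to whole UMIs, from which none was further than 0.256. The submitters' design text maps barcode endings to samples. Cells had a median of 5962.5 UMIs in the library labelled KO and 5740 in that labelled WT, with 633 and 686 cells under 1000, none removed. The libraries shared 4 barcodes. Scrublet (in scanpy 1.11.5) marked 118 (1.67%) and 100 (1.57%) further doublets, which were kept. Cells were integrated over the libraries and clustered (2000 variable genes without the 10 members, 30 components, resolution 0.8) and named from fixed markers, while rules for mixed and unnamed clusters were written after the clusters were seen. Levels are summed UMIs as CPM. Zeros allow up to 3 UMIs.

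Named were all 10 members, up to 4 called genes of each list in endothelial cells, FAPs and macrophages (otherwise the 2 with most UMIs), and the 3 genes most like each member. Members and lists were chosen with earlier results of these data known. The steps were tested on simulated data. Alternatives were means over cells, cells of at least 1000 UMIs, no integration, resolutions of 0.4 and 1.2, a marker score for each cell, no doublets, 10 CPM added, other UMI minimums, scaling without the top 50 genes and other thinning. Python 3.11.15 and scipy 1.17.1 were used.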

Additional observations from a re-analysis of the deposited data

Results flagged for a closer look

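Vegfa, Flt1 and Kdr differed between the libraries with opposite signs in different cell types. The difference between cell types was not tested, since each genotype has 1 library. On the log2 scale, KO over WT, Vegfa was at 0.81 in macrophages, -1.10 in endothelial cells, -1.75 in lymphatic endothelial cells and -0.81 in FAPs. Flt1 was at 1.47 in dendritic cells, -1.05 in FAPs, -1.02 in tenocytes and -1.41 in macrophages. Kdr was at 1.37 in smooth muscle, 3.86 in dendritic cells, -0.75 in Schwann cells and -1.03 in macrophages. Beside the last 2 genes, the summed endothelial markers were 232 and 47.2 CPM in dendritic cells, 977 and 846 CPM in smooth muscle, 719 and 937 CPM in Schwann cells, 121 and 165 CPM in FAPs, 137 and 137 CPM in tenocytes and 74.6 and 115 CPM in macrophages (KO first), and their part was not tested. Kdr had no lower bound above the level these markers give in any named type outside the vessels, and its value in dendritic cells rests on 34 and 2 UMIs.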

How the results depend on the processing

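No paired analysis was possible because each genotype has 1 library, and for the same reason no replicate could be left out. Counts of VEGF genes past 1.5-fold moved by over 1.5 times as follows. With means over cells the count was 1 in endothelial cells, where the sum over cells gave 2, and 2 in place of 1 in tenocytes and MuSCs. With no integration it was 2 in tenocytes and 2 in macrophages, where 4 had passed. With a marker score for each cell it was 5 in lymphatic cells (2 before), 0 in tenocytes, 2 in macrophages and 2 in MuSCs. With 10 CPM added it was 1 in FAPs, 0 in tenocytes and 2 in macrophages. These counts stand without the share of all genes passing under the same settings, so nothing about the VEGF genes is read from them. The sign turned under the marker score for Flt1 in tenocytes (0.000139) and macrophages (0.0949) and for Kdr in macrophages (0.30). Without thinning, 7 of the 10 genes were read in at least 10% of endothelial cells, against 4 with it. Vegfa kept its sign under every alternative run: its log2 ratio lay between -1.16 and -0.88 in endothelial cells, -2.19 and -1.52 in lymphatic cells, -0.87 and -0.66 in FAPs and 0.62 and 1.06 in macrophages. The other 63 counts moved by less than 1.5 times, and of the values for single genes 496 were within their counting interval, 18 moved and 3 turned. The cause of these moves was not tested. Depth limits Vegfb and Vegfd in most types and every gene in NK cells and mature muscle to few UMIs.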
